A study of Mus musculus with 12 samples.

Results

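The Hedgehog pathway was followed through 9 of its genes in TM3 cells exposed to methoxyacetic acid (MAA). The 9 genes were the ligands Dhh, Ihh and Shh, the receptor Ptch1, the signal transducer Smo, the ligand-binding inhibitor Hhip and the transcription factors Gli1, Gli2 and Gli3. Probes were found by the RefSeq accession that the array gives for each gene, since the column of gene names holds accessions, and 9 probes of 8 genes were matched among the 41174 probes of the array, which carries 15980 genes with a matched symbol. Smo had 2 probes, the other 7 genes had 1 each, and Gli2 had none, so Gli2 was not analysed here. The set was chosen by its MAA-to-control ratios in these same arrays, in which Dhh was strongly induced and the Gli1 ratio was highest late. The MAA responses of Dhh and Gli1 are therefore described without a test and are not evidence for themselves.

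TM3 is a line of Leydig cells, the androgen-producing cells of the testis, from immature Balb/c mice, and MAA is the active metabolite of the solvent ethylene glycol monomethyl ether. Treatment with MAA, at 5 mM or at 1 mM, lasted 3 h, 8 h or 24 h. For each of these 6 conditions, 2 arrays with both dyes set treated RNA against RNA of untreated cells of that time, and every treated RNA was pooled from 3 cultures. MAA-treated RNA carried the green dye on replicate 1 and the red dye on replicate 2. By the paper's methods the dye swap used a separate pool of treated cultures. The replicate number therefore marks dye orientation and pool together. The 12 arrays lay on 3 slides of 4 arrays, and the 2 arrays of every condition lay on different slides. Slide 1 held only replicate 1 arrays of 3 h and 24 h, and slide 3 only replicate 2 arrays, most of them at 5 mM. All 8 h arrays lay on slides 2 and 3. The slide was thus partly tied to replicate number, time and concentration. Both concentrations were compared with untreated cells of the same times and may share control RNA, so the 2 concentrations are not independent of each other in the control channel.

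Hedgehog ligands are secreted proteins that bind Patched 1, encoded by Ptch1. Without ligand, Ptch1 holds the membrane protein Smoothened (Smo) inactive; with ligand, Smo is released and the Gli transcription factors are switched toward activation. Gli1, Ptch1 and Hhip are themselves widely used as transcriptional readouts of the pathway. In the testis, Dhh from Sertoli cells acts on Ptch1-bearing interstitial cells and is required for normal Leydig cell differentiation and peritubular development. These statements are background, not results of the arrays.

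Between 61.5% and 70.5% of probes were well above background in the control channel, the scanner software's own call for a signal that stands clear of local background. Of 10 Leydig cell markers measured, Star, Cyp17a1, Insl3, Pdgfra and Scarb1 were well above background in all 12 control channels. Nr5a1 was so in 8, and Cyp11a1, Hsd3b1, Hsd3b6 and Lhcgr in none. By their brightest probes, 4 defining markers of the labelled cell type thus gave no signal well above background in untreated cells. The arrays do not tell a low level of these transcripts from none. Median log2 ratios over all probes were between -0.10 and 0.03 in the 6 conditions, with -0.10 at 5 mM, 3 h.

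Sequence is shown for the 2 members with the clearest changes that have a promoter entry in RefSeq (build GRCm38.p6), Dhh and Smo, and for the probe that measured Gli1. The promoter lines give the 250 bases before the annotated start, 5′ to 3′ on the gene's own strand, at chr15:98898541-98898790 (minus strand) for Dhh and at chr6:29735247-29735496 (plus strand) for Smo. Capitals mark each match to the GC box GGGCGG on either strand.
Dhh promoter: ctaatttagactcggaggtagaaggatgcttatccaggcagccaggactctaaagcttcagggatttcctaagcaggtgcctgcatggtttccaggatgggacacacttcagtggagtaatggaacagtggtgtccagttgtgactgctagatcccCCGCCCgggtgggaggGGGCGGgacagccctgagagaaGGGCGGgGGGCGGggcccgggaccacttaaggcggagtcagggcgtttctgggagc
Smo promoter: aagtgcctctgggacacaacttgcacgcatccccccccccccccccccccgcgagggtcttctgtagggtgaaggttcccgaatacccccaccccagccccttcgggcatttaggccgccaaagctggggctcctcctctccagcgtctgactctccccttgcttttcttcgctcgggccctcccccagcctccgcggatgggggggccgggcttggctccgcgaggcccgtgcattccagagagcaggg
Gli1 probe: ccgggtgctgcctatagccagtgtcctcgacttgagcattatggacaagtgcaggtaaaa

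The Dhh window held 4 GC boxes, all between 44 and 94 bases before the start, with 1 of them on the opposite strand, and the Smo window held none. At least 1 match occurred in 32.7% of the 32851 promoter windows of the same length, and at least 4 matches in 4.09%. Of the 7 members with a window, Gli3, Hhip and Ihh had 2 matches each, Gli2 and Ptch1 had 1 each, and only Smo had none. The Gli binding motif TGGGTGGTC, searched on both strands, was in none of these 7 windows and in 0.225% of all windows. A match is a string of letters in a window and was not linked to any measured change. The Gli1 probe is 60 bases long and 51.7% of them are G or C.

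Dhh, the ligand for which the testis is best known, had the highest MAA-to-control ratio among the members in the 5 conditions in which its MAA channel was well above background. At 5 mM, the processed signal of the MAA channel was 25.1 and 27.7 on the 2 arrays at 3 h, 246 and 215 at 8 h, and 176 and 140 at 24 h. The control channel of the same arrays read 3.08 and 4.78 at 3 h, 13.3 and 6.49 at 8 h, and 11.4 and 8.41 at 24 h. On every one of these 6 arrays the MAA channel was well above background, whereas the control channel was well above background on only 1 of them, replicate 1 at 24 h.

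The log2 ratios of Dhh at 5 mM were 3.03 and 2.54 at 3 h, with a mean of 2.78 (SD 0.35, n = 2). They were 4.22 and 5.05 at 8 h, with a mean of 4.63 (SD 0.59, n = 2). At 24 h they were 3.94 and 4.06, with a mean of 4.0 (SD 0.08, n = 2). Both 8 h arrays lay above both 24 h arrays, and both 24 h arrays lay above both 3 h arrays. Because untreated cells gave no signal well above background on either array at 3 h and 8 h, the fold there is only an approximate lower limit. It is set against the dimmest probe that was well above background. By that limit the treated cells were 1.99-fold higher at 3 h and 14.4-fold higher at 8 h. A spot that fails the call can hold more signal than that dimmest probe, so neither value is a strict minimum. At 24 h, where 1 of the 2 control channels was measured, the mean ratio corresponded to 16.0-fold, a value that rests in part on a control signal not well above background. These values depended on the background correction and on the offset that came with it. With normexp (offset 50) and loess in its place, the log2 ratio was 0.49 at 3 h, 2.00 at 8 h and 1.55 at 24 h. That offset is added to both channels and is larger than every Dhh control signal, so it shrinks these ratios by itself. The effect of the background method alone cannot be read from them.

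At 1 mM the ratios of Dhh were smaller at each time, and the arrays of the 2 concentrations did not overlap at any time. Neither channel was well above background on either array at 3 h, with signals of 4.03 and 4.87 in the MAA channel and 1.81 and 2.04 in the control channel, so no fold is given there. At 8 h the log2 ratios were 1.63 and 2.12, a mean of 3.67-fold, with the control channel well above background on only 1 of the 2 arrays. At 24 h they were 1.61 and 2.52. Neither control channel was well above background there, and by the same approximate limit the treated cells were 2.08-fold higher. The ranges of the 8 h and 24 h arrays overlapped at this concentration. The Dhh signals of untreated cells were at most 13.3 and stood well above background on 2 of 12 arrays.

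**Figure D1:**
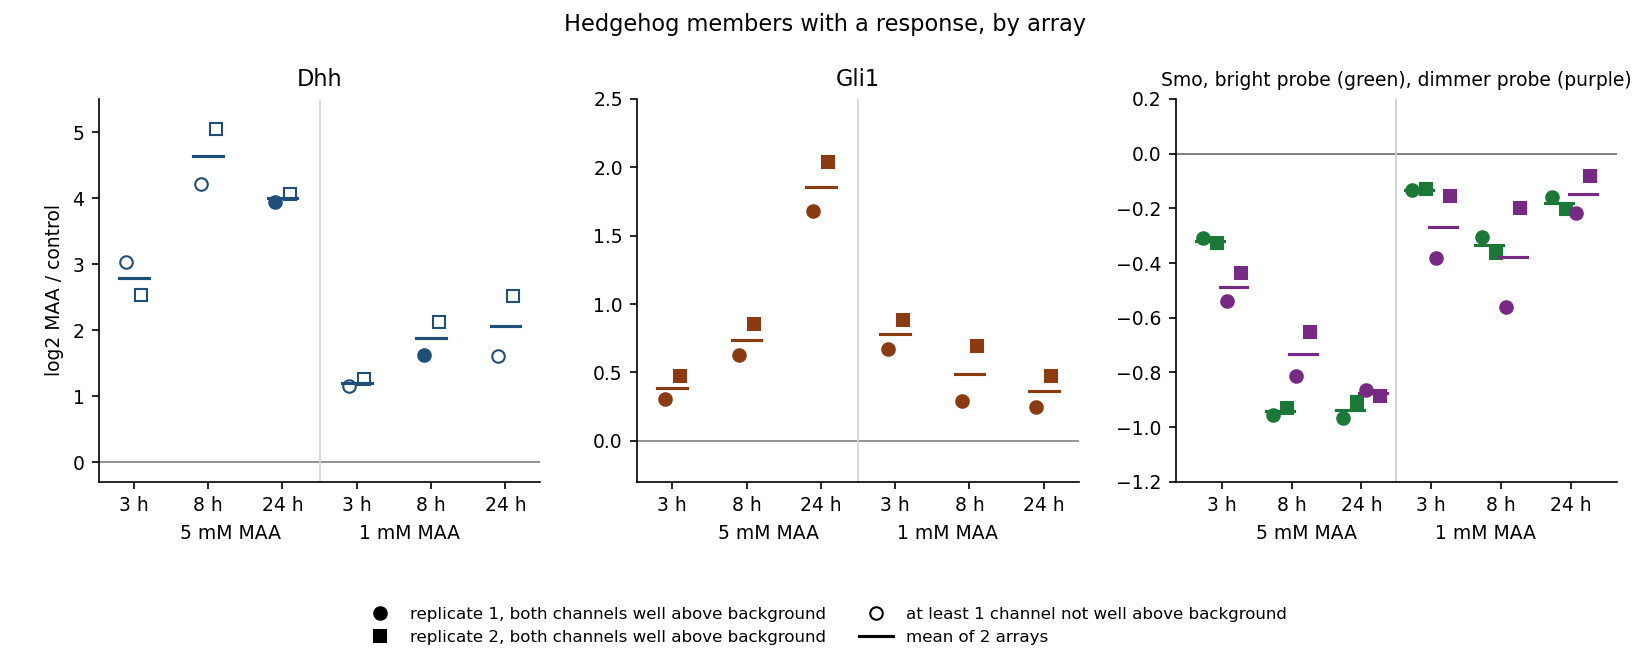
Log2 MAA/control (y axes, different ranges) of Dhh, Gli1 and both Smo probes on each of the 2 arrays (points) and their mean (lines) for 3, 8 and 24 h at 5 mM and 1 mM MAA (x axes). Dhh lies above 1 on all 12 arrays, mostly with an open symbol because a channel was not well above background; Gli1 is highest at 5 mM, 24 h; both Smo probes lie below 0 on all 12 arrays.

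The other ligands gave no measurable response. Shh was not well above background in either channel on any of the 12 arrays, with signals of at most 4.84. Ihh was well above background on a single array, replicate 1 at 1 mM, 24 h, and its log2 ratio followed the replicate number. It was above 0 on all 6 arrays of replicate 1 and below 0 on all 6 arrays of replicate 2, between -1.08 and 0.58. Dye and pool cannot be told apart in this. For neither gene is a fold given, and the arrays do not tell a low level of these transcripts from none.

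Smo, the membrane protein through which the pathway signals, was lower in MAA-treated cells by both of its probes. By the brighter probe, A_51_P258766, the control channel read between 23871 and 42483 and the MAA channel between 21703 and 30847 over the 12 arrays, with every spot well above background. Its log2 ratios at 5 mM were -0.31 and -0.33 at 3 h, -0.96 and -0.93 at 8 h, and -0.97 and -0.91 at 24 h. Both 8 h arrays and both 24 h arrays lay below both 3 h arrays, and the 8 h and 24 h ranges overlapped.

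Smo was thus at 80.2% of control at 3 h (adjusted p = 0.0036), 52.1% at 8 h (adjusted p = 2.4e-05) and 52.2% at 24 h (adjusted p = 3.0e-05) by this probe, with a standard error of 0.05 on the log2 scale (limma, Benjamini-Hochberg adjustment over all probes). The dimmer probe, A_52_P444864, read only between 122 and 228 in the control channel, and the cause of this gap in signal was not tested. It gave 71.3%, 60.2% and 54.5% of control (adjusted p = 0.010, 0.0012 and 5.5e-04), with a standard error of 0.10. Neither probe passed the 2-fold threshold that a call at 5 mM also needed. At 3 h neither probe passed once each array was centred on its median, with -0.21 on the log2 scale for the brighter (adjusted p = 0.20) and -0.38 for the dimmer (adjusted p = 0.12), and the dimmer one also did not pass without either 3 h array.

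At 1 mM the brighter Smo probe was at 91.2%, 79.3% and 88.2% of control at 3, 8 and 24 h, and it passed the adjusted threshold at 8 h alone (adjusted p = 0.014; 0.25 at 3 h and 0.069 at 24 h). That pass was lost with median centring (adjusted p = 0.18), in a fit of the 1 mM arrays alone (adjusted p = 0.13) and without either of the 2 arrays of that condition. The dimmer probe had log2 ratios of -0.27, -0.38 and -0.15 and passed at none of the 3 times. The difference between 5 mM and 1 mM was tested directly. For the brighter probe it was -0.61 ± 0.07 (SE) on the log2 scale at 8 h (adjusted p = 0.0041) and -0.76 ± 0.07 at 24 h (adjusted p = 0.0020), while at 3 h it was -0.19 ± 0.07 (adjusted p = 0.27). For the dimmer probe it passed at 24 h, at -0.73 ± 0.14 (adjusted p = 0.023), which was lost with median centring (adjusted p = 0.092) and without any 1 of the 4 arrays at 24 h. Within 5 mM, the ratio of the brighter probe was lower at 8 h than at 3 h by -0.62 ± 0.07 (adjusted p = 0.0077), which did not pass when either 8 h array was left out or in a fit of the 5 mM arrays alone (adjusted p = 0.12), and lower at 24 h than at 3 h by -0.62 ± 0.07 (adjusted p = 0.0021).

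Ptch1, the Hedgehog receptor, had log2 ratios below 0 on all 12 arrays, between -0.63 and -0.02, and did not pass against control in the fit without a term for dye or slide. At 5 mM its ratios were -0.42 and -0.05 at 3 h, -0.31 and -0.09 at 8 h, and -0.54 and -0.11 at 24 h. At 1 mM they were -0.28 and -0.05, -0.63 and -0.02, and -0.58 and -0.26. Replicate 1 was the lower array in every condition, so part of this spread followed the replicate number, in which dye and pool cannot be told apart. The adjusted p ranged from 0.20 to 0.87 over the 6 conditions. With the slide as a block, Ptch1 passed at 5 mM, 24 h (-0.35 on the log2 scale, adjusted p = 0.040). With a replicate block it passed at 5 mM, 24 h and at 8 h and 24 h of 1 mM, so its result depended on that term. Hhip, an inhibitor that binds the ligands at the cell surface, was not well above background on 11 of 12 arrays; on replicate 1 at 1 mM, 24 h its single spot read 118 in the MAA channel and 153 in the control channel, against at most 7.55 on every other array, and no fold is given for it.

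Gli1, the transcription factor whose level is a common readout of Hedgehog signaling, had a ratio above 0 on all 12 arrays, with both channels well above background on each. At 5 mM the log2 ratios were 0.30 and 0.48 at 3 h, 0.63 and 0.85 at 8 h, and 1.68 and 2.04 at 24 h. The means were 0.39 (SD 0.12, n = 2), 0.74 (SD 0.16, n = 2) and 1.86 (SD 0.26, n = 2), or 1.31-fold, 1.67-fold and 3.63-fold. The ranges of the 3 times did not overlap and followed the order of time. With normexp (offset 50) and loess, the values were 0.13, 0.44 and 0.88, in the same order. At signals as dim as these the offset itself shrinks the ratios.

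At 1 mM the order of the times was the opposite of that at 5 mM. The log2 ratios of Gli1 were 0.67 and 0.88 at 3 h, 0.29 and 0.69 at 8 h, and 0.25 and 0.48 at 24 h, or 1.72-fold, 1.41-fold and 1.29-fold. The 8 h range overlapped with both of its neighbors, while the 3 h and 24 h ranges did not overlap. At 3 h both arrays of 1 mM lay above both arrays of 5 mM, at 8 h the concentrations overlapped, and at 24 h both arrays of 5 mM lay far above both of 1 mM. In all 6 conditions replicate 2 gave the higher ratio. The 10 repeat spots of this probe on each array had an SD between 0.08 and 0.24 on the log2 scale.

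To see which channel moved, the signals of both channels were placed on a common scale (Aquantile normalization, log2 signal), which allows one probe to be followed across arrays. In untreated cells the Gli1 signal was 5.36 ± 0.04 at 3 h, 5.59 ± 0.16 at 8 h and 4.41 ± 0.15 at 24 h (SD, n = 4 arrays). All 4 arrays at 24 h, at 4.31 to 4.62, lay below all 8 earlier arrays, at 5.31 to 5.73. In cells with 5 mM MAA it was 5.68 and 5.78 at 3 h, 6.33 and 6.35 at 8 h, and 6.30 and 6.35 at 24 h. In cells with 1 mM MAA it was 6.06 and 6.23 at 3 h, 6.01 and 6.11 at 8 h, and 4.65 and 4.78 at 24 h.

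From 8 h to 24 h the Gli1 signal of untreated cells thus differed by -1.17 on the log2 scale, to 44.3% of its 8 h level, while the treated signal at 5 mM had nearly the same mean at both times (6.34 and 6.33). Compared with 8 h, the higher Gli1 ratio at 24 h of 5 mM thus came with a lower signal in untreated cells and not with a higher one in treated cells. Compared with 3 h, both the lower untreated signal and the higher treated signal, with no overlap in either, went with it. With normexp and loess before the same scaling, the untreated difference from 8 h to 24 h was -0.38. These are the same signals that form the ratio, so no test is given for them.

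**Figure D2:**
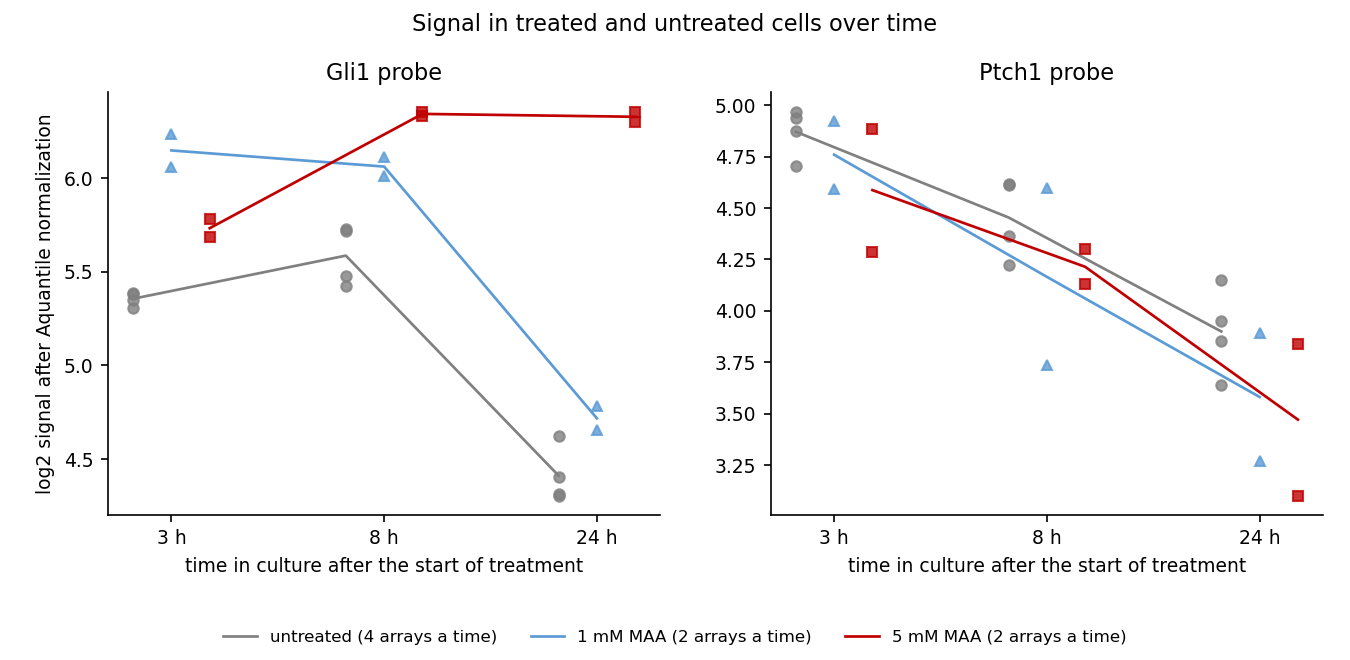
Log2 signal after Aquantile normalization (y axes, a separate range for each probe) of the Gli1 and Ptch1 probes at 3, 8 and 24 h (x axes, not to scale in time) in untreated cells, in 1 mM MAA and in 5 mM MAA. Points are arrays and lines join the means; between 8 h and 24 h the Gli1 signal is lower in untreated cells and at 1 mM but not at 5 mM, while the Ptch1 signal is lower at 24 h than at 3 h in all 3.

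Untreated cells were compared over time for the members whose response to MAA had not led to their choice, that is 7 probes. The 4 control channels of a time may share RNA but were fitted as independent, so the adjusted p-values below may be too small. The Ptch1 signal of untreated cells went from 4.87 ± 0.12 at 3 h to 4.45 ± 0.19 at 8 h and 3.90 ± 0.21 at 24 h (SD, n = 4 arrays), and all 4 arrays at 24 h lay below all 8 earlier ones. Its differences were -0.42 (adjusted p = 0.021) from 3 h to 8 h, -0.97 (adjusted p = 5.3e-05) from 3 h to 24 h and -0.55 (adjusted p = 0.0043) from 8 h to 24 h, the last a comparison added after the Gli1 signals had been seen. With normexp and loess before the scaling they were -0.09 (adjusted p = 0.099), -0.23 (adjusted p = 1.4e-04) and -0.15 (adjusted p = 0.0063). From 3 h to 8 h the difference also did not pass in the control channels of 1 concentration's arrays alone (adjusted p = 0.31 for 5 mM and 0.18 for 1 mM), or without replicate 2 of 5 mM at 3 h or 8 h, replicate 2 of 1 mM at 3 h or replicate 1 of 1 mM at 8 h. The difference from 8 h to 24 h did not pass in the control channels of the 5 mM arrays alone (-0.62, adjusted p = 0.14) or of the 1 mM arrays alone (-0.49, adjusted p = 0.14). At 24 h Ptch1 was at 51.0% of its 3 h signal. In the 5 mM cells the mean Ptch1 signal was 4.59 at 3 h and 3.47 at 24 h, and both arrays at 24 h lay below both arrays at 3 h.

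Such differences over time were common: 35.8% of all probes passed from 3 h to 8 h, 46.6% from 3 h to 24 h and 35% from 8 h to 24 h. These shares come from the same fit and have the same limit. Of the 7 member probes, 2, 3 and 1 passed, in each case a smaller share than among all probes. Both Smo probes were among the 3 at 24 h, but in opposite directions, at 0.22 for the brighter and -0.21 for the dimmer, and the sign of the brighter one turned to -0.27 when the control signals were only shifted to a common median. No direction is therefore given for Smo in untreated cells. Gli3, the remaining Gli factor, which acts largely as a repressor without ligand, did not pass at either time (adjusted p = 0.19 and 0.17), nor did Ihh, Shh or Hhip.

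Over all members other than Dhh and Gli1, none of 7 probes was called in any of the 6 conditions. A call required, in limma, a p under 0.005 before adjustment together with a ratio beyond 2-fold (5 mM) or beyond 1.5-fold (1 mM). Of all probes, 3.76%, 5.55% and 5.62% were called at 3, 8 and 24 h of 5 mM, and 1.95%, 2.37% and 4.68% at 1 mM. At an unadjusted p under 0.05, 2 of the 7 passed in each condition. They were the 2 Smo probes, except at 1 mM, 24 h, where they were the brighter Smo probe and Ptch1. The share of all probes at this unadjusted threshold was not counted, so nothing is read from that number. At an adjusted p under 0.05 the 2 Smo probes passed at each time of 5 mM, 1 Smo probe at 1 mM, 8 h, and none at the other times of 1 mM. The shares of all probes at that adjusted threshold were 24%, 30.4% and 30.4% for the 3 times of 5 mM, followed by 4.62%, 5.53% and 11.3% for those of 1 mM, so that 2 of 7 is close to the background at 5 mM. Between the concentrations 0, 1 and 2 of the 7 passed at 3, 8 and 24 h, against 3.4%, 10.1% and 8.41% of all probes. Without adjustment 1 passed at 3 h, the brighter Smo probe, and the share of all probes was again not counted. Within 5 mM, 1 of 7 passed from 3 h to 8 h and 1 from 3 h to 24 h, against 5.1% and 15.8% of all probes. Gli3 had mean log2 ratios between -0.33 and -0.09 and passed in no condition (adjusted p between 0.27 and 0.79), with signals well above background in both channels on all 12 arrays.

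**Figure D3:**
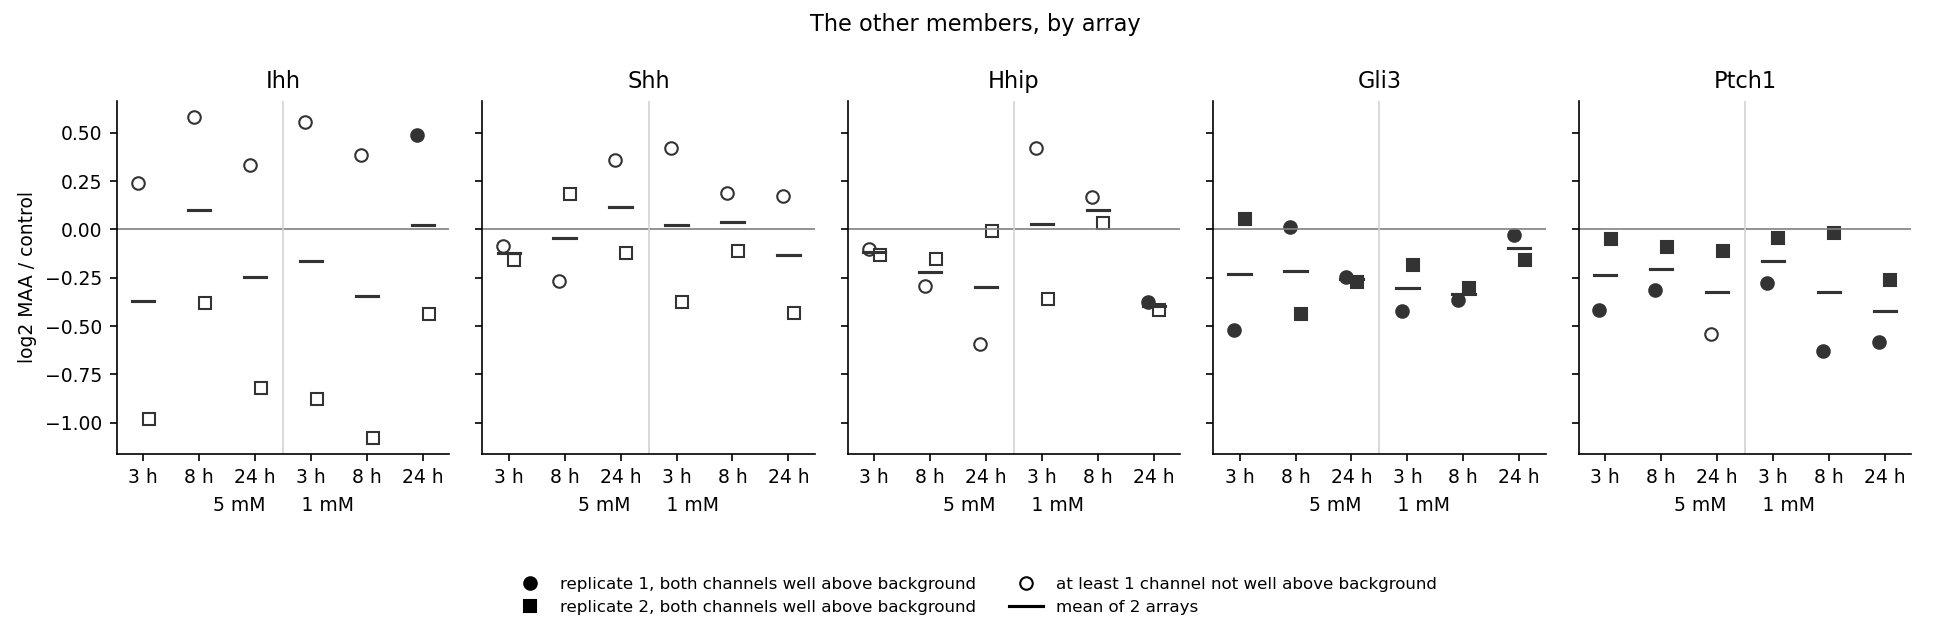
Log2 MAA/control (shared y axis) of Ihh, Shh, Hhip, Gli3 and Ptch1 on each array (points) and the mean of the 2 arrays (lines) for 3, 8 and 24 h at 5 mM and 1 mM MAA (x axes). Open symbols, where a channel was not well above background, hold nearly all of Ihh, Shh and Hhip; circles (replicate 1) lie above squares (replicate 2) in every condition for Ihh and below them in every condition for Ptch1.

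The wider pathway was read from 40 further genes in 5 lists, each by its brightest probe. At 5 mM, 5, 4 and 2 of the 40 were called at 3, 8 and 24 h, and at 1 mM 0, 3 and 2 were called, beside 3.76%, 5.55% and 5.62% of all probes at 5 mM and 1.95%, 2.37% and 4.68% at 1 mM. Counting an unadjusted p under 0.05 instead, the 3 times gave 20, 26 and 23 genes for the higher concentration. The lower one gave 13, 13 and 12. The share of all probes at this unadjusted threshold was not counted, so nothing is read from these counts. After adjustment 18, 22 and 22 genes were left for the higher concentration, beside 24%, 30.4% and 30.4% of all probes. For the lower one 3, 3 and 5 were left, beside 4.62%, 5.53% and 11.3%. The median log2 ratio of the 40 was -0.12, -0.06 and 0.10 at the 3 times of 5 mM, beside -0.10, -0.04 and 0.03 over all probes. Called genes lay in both directions, and 8 of the 40 were called in at least 1 condition, beside 12.8% of all probes.

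Of 5 genes for the release of ligand, 2 were called. Disp2, of the Dispatched family named for ligand release, rose 3.45-fold, 3.72-fold and 3.06-fold at 3, 8 and 24 h of 5 mM (adjusted p = 0.0012, 6.6e-04 and 0.0016), with all 6 arrays between 1.33 and 2.46 on the log2 scale. Scube2, a secreted protein that helps to solubilize lipid-bearing ligand, fell to 44.2% of control at 3 h and 47.6% at 8 h (adjusted p = 2.0e-04 at both times) and was at 67.9% at 24 h. Its MAA channel was well above background on only 1 of 2 arrays at 3 h, so the value there rests in part on a signal near background. In the brightest probe of Hhat, the acyltransferase that attaches palmitate to the ligands, no call was made, while a second, dimmer probe of the gene was called at 24 h (-1.06 on the log2 scale). At 1 mM no gene of this list was called.

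Among 6 genes for co-receptors and ligand binding, Gas1 alone was called. Gas1, a membrane co-receptor that promotes ligand binding, read -1.91 on one 5 mM array and -1.80 on the other at 3 h, which is 27.7% of control (adjusted p = 1.9e-05). It was at 63.9% at 8 h and 97.5% at 24 h, and at 75.2% at 3 h of 1 mM. The response of this gene was therefore early and was no longer seen at 24 h.

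Among 11 genes of signal relay, Arrb2 alone was called. Arrb2, a beta-arrestin that binds activated receptors, Smo among them, was at 1.70-fold, 2.50-fold and 3.23-fold of control at 3, 8 and 24 h of 5 mM and was called at 8 h and 24 h (adjusted p = 1.5e-04 and 6.4e-05). At 1 mM it was called at 24 h, 1.75-fold (adjusted p = 0.0064). For Stk36, a kinase-like gene of the same list, the brightest probe was not called and a dimmer one was, at 3 h of 5 mM (1.11 on the log2 scale). No brightest probe of the 5 cilium transport genes, whose products carry pathway proteins in the primary cilium, was called; a dimmer Ift172 probe was called at 24 h (-1.22), beside -0.88 for the brightest (adjusted p = 3.3e-04).

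Of 13 genes reported elsewhere as targets of Gli factors, 4 were called. Bcl2, an inhibitor of apoptosis, rose 2.17-fold at 3 h and 2.44-fold at 8 h of 5 mM (adjusted p = 6.6e-04 and 2.4e-04) and 1.69-fold at 8 h of 1 mM, by 1 of its 2 probes. Bmp4, a secreted growth factor, fell to 44.9% of control at 3 h of 5 mM (adjusted p = 5.8e-05) and was at 81.6% at 24 h. Mycn, a growth-promoting transcription factor, was called at 1 mM, 1.54-fold at 8 h and 1.56-fold at 24 h (adjusted p = 0.0045 and 0.0019), and both of its probes were called there. At 5 mM, 3 h both Mycn probes had passed downward, at -0.57 and -0.81 on the log2 scale (adjusted p = 8.0e-04 and 4.6e-04), short of the 2-fold threshold. Ccnd1, which encodes cyclin D1, was called at 1 mM, 8 h (1.61-fold, adjusted p = 0.010). At 24 h of 5 mM, where the Gli1 ratio was highest, none of the 13 was called (limma), and 6 of them passed an adjusted p under 0.05, 4 upward and 2 downward, beside 5.62% and 30.4% of all probes. The median log2 ratio of this list was 0.20 there, beside 0.03 over all probes.

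**Figure D4:**
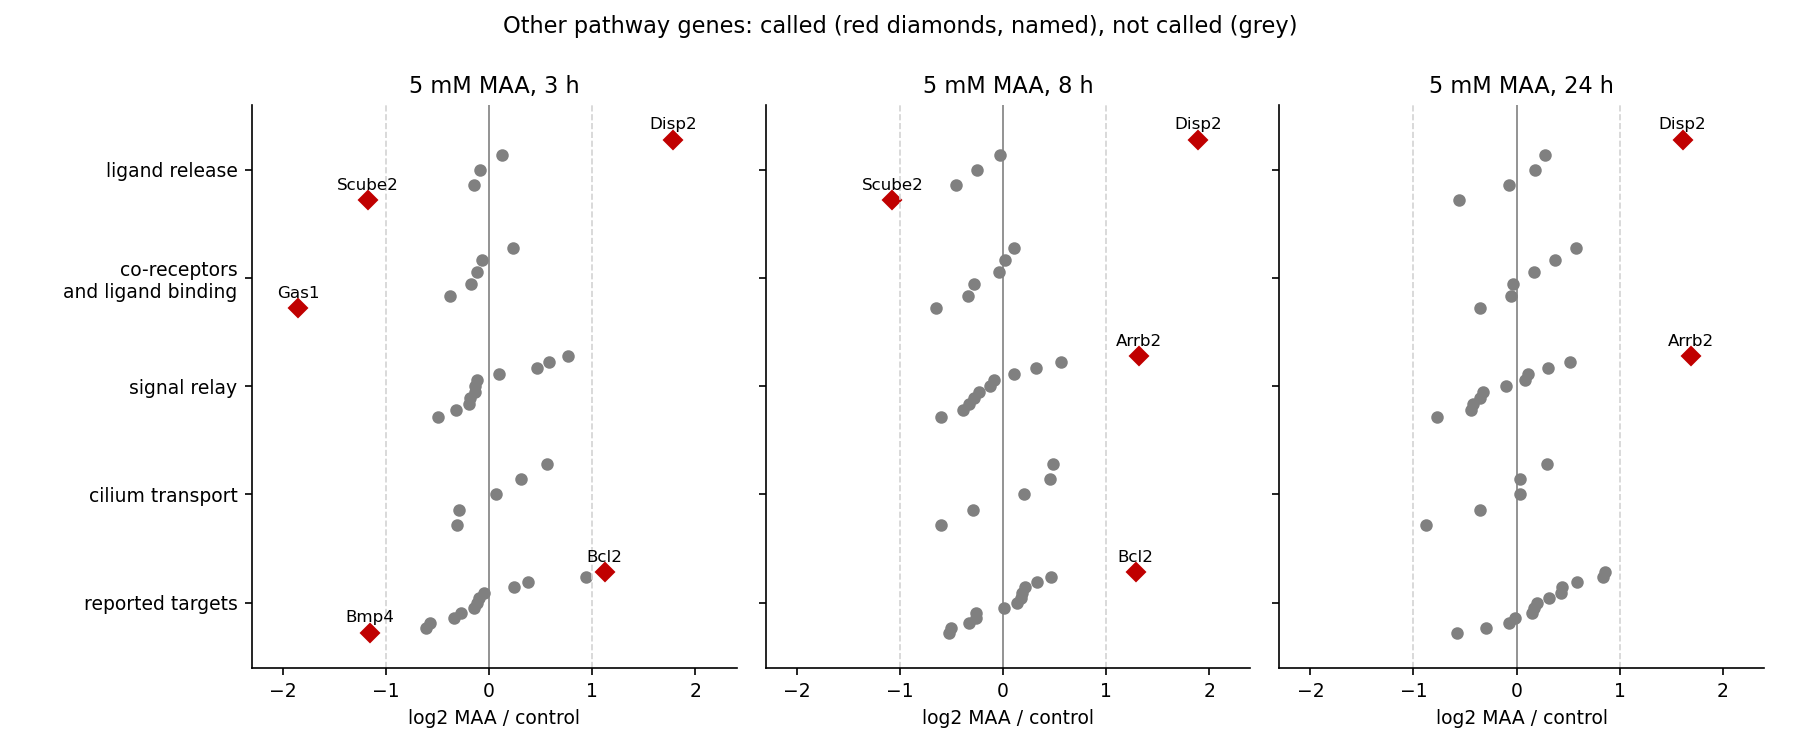
Log2 MAA/control (x axes) at 3, 8 and 24 h of 5 mM MAA for 40 further pathway genes in 5 lists (top to bottom), each by its brightest probe as the mean of 2 arrays. Red diamonds with names were called and grey points were not; dashed lines mark a 2-fold change, and the called genes lie on both sides of 0 at 3 h and 8 h.

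Because Dhh in the testis is made by Sertoli cells and elsewhere by Schwann and endothelial cells, markers of these and other cells were read on the same arrays. Of 9 Sertoli cell markers measured, Sox9, Wt1, Clu and Rhox5 were well above background in all 12 control channels, Dmrt1 and Cldn11 in none, and Amh and Fshr in 2. Called upward at 5 mM were Sox9 at 3 h (1.37 on the log2 scale), Clu at 8 h and 24 h (1.58 and 1.88) and Rhox5 at 24 h (1.28), and at 1 mM Sox9 was called at 3 h, Clu at 8 h and 24 h and Gata1 at 24 h. Wt1 went the other way, without reaching 2-fold, to 77.4% of control at 3 h and 57.4% at 8 h of 5 mM (adjusted p = 0.010 and 2.0e-04). The summed signal of the list ranged from 9060 to 16751 in untreated cells, from 8349 to 29104 at 5 mM and from 8804 to 30787 at 1 mM. Among Schwann cell markers, S100b was well above background in all 12 control channels, and Erbb3 was called upward at each time of 5 mM from a control that was well above background on 1 of 12 arrays. At 1 mM Erbb3 was called upward at 3 h, with neither control channel well above background, and S100b at 24 h. Of 5 endothelial markers, Pecam1, Cdh5 and Kdr were above background in no control channel, and Cdh5 was called upward at 24 h of 5 mM with neither channel well above background and at 24 h of 1 mM (2.04 on the log2 scale, adjusted p = 0.0033) with the MAA channel well above background on both arrays. Tek was lower at 8 h of 5 mM (-1.34, adjusted p = 0.031) without being called. Neither of its MAA channels and only 1 of its 2 control channels were well above background there. The endothelial sum ranged from 15.6 to 139 in untreated cells and from 17.8 to 211 at 1 mM, and was within the untreated range at 5 mM. Of 3 macrophage markers, Adgre1 and Ptprc were in no control channel. Adgre1 was called upward at 24 h of both concentrations, and Aif1 at 3 h of 1 mM with neither channel well above background. Of 5 peritubular myoid markers 3 were in all control channels. At 5 mM Cnn1 was called upward at 8 h and Des at 24 h, and at 1 mM Cnn1 at 8 h and 24 h and Tagln at 24 h. Of 5 germ cell markers 3 were in all and none was called at either concentration. Summed macrophage signals were at most 38.4 in untreated cells and 62.3 and 56.5 at 5 mM and 1 mM. Those of myoid markers ranged from 18110 to 24782 in untreated cells, from 21978 to 34458 at 5 mM and from 20325 to 30159 at 1 mM, and those of germ cell markers from 578 to 1778, 439 to 2017 and 636 to 1551. Of the Leydig cell markers, at 24 h of 5 mM Cyp11a1 was called upward (1.75) from controls not well above background and Insl3 downward (-1.11), and the sum ranged from 43293 to 57082 in untreated cells, from 28014 to 60384 at 5 mM and from 43911 to 72312 at 1 mM. The part of these changes in the Dhh signal was not tested, and a larger share of cells of one kind cannot be told apart here from more RNA per cell.

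The probes most like Dhh and Gli1 were taken as those with the highest Pearson correlation of log2 ratios over the 12 arrays, among 16400 probes that have a gene symbol and that, on 6 or more arrays, stood well above background in 1 channel or both. For Dhh these were Cotl1 (r = 0.98), Dop1b, Hid1, Scoc and Tbc1d1 (r = 0.97 for each). Hid1 had the widest response of the 5, whose 5 mM means on the log2 scale were 1.55, 2.01 and 1.84, and Scoc the narrowest, with 0.13, 0.28 and 0.21. For Gli1 they were Padi2 and Ptprn (r = 0.97), Tmem63b (r = 0.96), and Gng2 and Gpt (r = 0.95). Padi2, which encodes a protein deiminase, had 5 mM means of -0.10, 0.82 and 2.73 and Gng2, a G protein subunit, 0.33, 0.60 and 1.25. These correlations rest on 6 conditions that may share control RNA and are given as a description.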

How the data were processed

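RNA of TM3 cells was hybridized by the authors to Agilent whole-genome mouse 60-mer arrays, and the deposited scanner output holds intensity values made with Agilent Feature Extraction 9.5.3.1, which subtracted background, detrended the array and scaled the dyes to each other (linear, then LOWESS). The authors also deposited a table of log10 ratios, already turned to MAA over control. From the processed intensities, control spots and spots marked as outliers (124 to 208 per array) were left out, repeat spots were averaged, and log2 MAA/control was computed without centring. Probes were named through their RefSeq accession. The members and gene lists were chosen with earlier results of these data known, and members were named by all their probes, other pathway genes if called in a condition with a channel well above background.

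All 12 arrays were fitted in limma 3.58.1 (R 4.3.3, with version 1.17.8 of the data.table package; figures by matplotlib 3.10.9 in Python 3.11.15) with 1 coefficient per condition, 6 residual degrees of freedom and Benjamini-Hochberg adjustment over all probes. Calls needed p under 0.005 before adjustment and a change beyond 2-fold (5 mM) or 1.5-fold (1 mM). Concentrations and times were compared as contrasts at an adjusted p under 0.05. Control channels were fitted after Aquantile normalization, with 1 coefficient per time and 4 arrays per time, taken as independent although they may share RNA. With 2 arrays per condition of pooled cultures, p-values measure only the spread between these arrays, and their number limits the precision. Dhh and Gli1 were left untested also in untreated cells, since the same signals enter their ratios. The steps were tested on simulated data. Alternatives were normexp (offset 50) with loess, the deposited log10 ratios, median centring, keeping outlier spots, leaving out dim probes, replicate and slide blocks, single concentrations, adjusted p-values, quantile normalization and leaving out each array in turn. A marker gene of the Schwann cell list, and the sum of that list, are not reported here.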

Additional observations from a re-analysis of the deposited data

Results flagged for a closer look

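Among 27 sets of 4 control signals (9 probes at 3 times), Hhip had 1 array far from the other 3 at 2 times: at 24 h, where the gap was 0.886 of the whole range for replicate 1 of 1 mM, and at 3 h, where it was 0.874 for replicate 1 of 1 mM. At 3 h that array was not well above background, whereas at 24 h the single spot read 153 in the control channel. Chance gives such a gap in about 1 of 20 sets. The other 25 sets held none.

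Smo differed between conditions in 5 tested differences. By the brighter probe, the log2 ratio was lower at 5 mM than at 1 mM by -0.61 at 8 h and -0.76 at 24 h, and lower at 5 mM, 8 h and 24 h than at 3 h by -0.62 in each case. By the dimmer probe it was lower at 5 mM than at 1 mM by -0.73 at 24 h.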

How the results depend on the processing

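The counts that follow leave out the brighter Smo probe at 5 mM and its differences between conditions, except between the concentrations at 3 h. They also leave out the untreated differences of Ptch1 to 24 h. Of 660 other tested values, under alternatives other than leaving out an array, 567 kept their direction and side of the threshold. Another 13 fell short of it, 23 newly passed, 55 moved and 2 reversed. With normexp (offset 50) and loess, the 5 mM log2 ratios at 3, 8 and 24 h became 0.49, 2.00 and 1.55 for Dhh and 0.13, 0.44 and 0.88 for Gli1, and 1 of the 7 other member probes passed an adjusted p under 0.05 at 1 mM, 24 h. In untreated cells this correction gave -0.35 (24 h minus 3 h) and -0.38 (24 h minus 8 h) for Gli1, and reversed Dhh, near background there, to -0.023 (8 h minus 3 h) and 0.028 (24 h minus 8 h). The offset, added to both channels, shrinks the ratios and differences of dim probes whatever the background method. With the deposited log10 ratios, 1 probe passed at 1 mM, 3 h, 1 at 1 mM, 24 h and 1 between the concentrations at 3 h. With each array centred on its median, the brighter Smo probe at 5 mM, 3 h was at -0.21, 0 probes passed at 5 mM, 3 h and at 1 mM, 8 h, and 1 between the concentrations at 24 h. Among probes well above background on all arrays, 2 passed at 1 mM, 8 h and 1 at 1 mM, 24 h, and Dhh has no value there.

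Deviations of same-numbered replicates correlated between conditions at 0.075 to 0.515 over 15 pairs, so they partly shared a shift by replicate number. That number also marks the dye and the pool, and the main fit held no term for it. The shift therefore stayed in the spread between arrays on which the main p-values rest. With a replicate block, 3 probes passed at 1 mM, 8 h, 2 at 1 mM, 24 h, 2 between the concentrations at 8 h, 2 from 3 h to 24 h of 5 mM, and in untreated cells 4 from 3 h to 8 h and 2 from 8 h to 24 h. Ptch1 was among them at 1 mM, 8 h (adjusted p = 0.036) and 24 h (adjusted p = 0.011), and passed at 5 mM, 24 h (adjusted p = 0.013). With the slide as a block, 1 listed pathway gene was called at 1 mM, 3 h, and 4 member probes differed in untreated cells from 3 h to 8 h. In fits of 1 concentration alone, the brighter Smo probe did not pass at 5 mM, 3 h (-0.32) or from 3 h to 8 h (-0.62), leaving 1 and 0 probes, and 0 passed at 1 mM, 8 h.

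Chosen after seeing the data were 4 further settings and a contrast. At an adjusted p under 0.05 and any fold, 2, 2 and 2 member probes passed at 3, 8 and 24 h of 5 mM and 1 at 1 mM, 8 h, with 18, 22 and 22 listed genes at 5 mM, 3 at 1 mM, 3 h and 5 at 1 mM, 24 h. In the control channels of the 5 mM arrays alone, 0, 1 and 0 probes differed from 3 h to 8 h, 3 h to 24 h and 8 h to 24 h, Ptch1 was at -0.62 for the last and Dhh reversed to 0.19. In those of the 1 mM arrays alone the counts were 0, 1 and 0 and Ptch1 was at -0.49. With control signals only shifted to a common median, the brighter Smo probe reversed to -0.34 (8 h minus 3 h) and -0.27 (24 h minus 3 h). The untreated contrast of 24 h against 8 h was also added then. The causes of these changes were not tested.

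Leaving out each array in turn gave 5 mM ranges at 3, 8 and 24 h of 2.54 to 3.03, 4.22 to 5.05 and 3.94 to 4.06 for Dhh, 0.30 to 0.48, 0.63 to 0.85 and 1.68 to 2.04 for Gli1, and -0.33 to -0.31, -0.96 to -0.93 and -0.97 to -0.91 for the brighter Smo probe. That probe's differences ranged from -0.64 to -0.58 and -0.79 to -0.73 between the concentrations at 8 h and 24 h, from -0.64 to -0.61 from 3 h to 8 h, where leaving out either 8 h array ended the call, and from -0.65 to -0.59 from 3 h to 24 h. In untreated cells, the 24 h minus 3 h and 24 h minus 8 h ranges were -1.01 to -0.91 and -1.24 to -1.13 for Gli1 and -1.05 to -0.88 and -0.64 to -0.47 for Ptch1. Member probes passing numbered 1 to 2 at 5 mM, 3 h, 0 to 1 at 1 mM, 8 h, 1 to 2 between the concentrations at 24 h, 0 to 1 from 3 h to 8 h of 5 mM, and in untreated cells 1 to 3 from 3 h to 8 h and 1 to 2 from 8 h to 24 h. Listed genes called numbered 3 to 4 at 5 mM, 8 h, 2 to 3 at 5 mM, 24 h, 0 to 1 at 1 mM, 3 h and 2 to 3 at 1 mM, 8 h. Signals near background limit Dhh, Ihh, Shh and Hhip.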
